A study of Saccharomyces cerevisiae with 24 samples.

Results

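The 8 enzyme genes of heme synthesis (HEM1, HEM2, HEM3, HEM4, HEM12, HEM13, HEM14 and HEM15) and the regulator genes HAP1 and ROX1 were followed through the yeast metabolic cycle of Saccharomyces cerevisiae strain CEN.PK. They were taken by their systematic names, and all 10 were among the 6562 genes of the deposited table. In that cycle a dense culture consumes oxygen in waves, with its cells in step. The cells were grown in minimal medium, and total RNA was sequenced at 0, 20, 60, 110, 140, 180, 200, 210, 220, 230, 240 and 260 min. All samples share the strain and the medium, no mutant and no added agent is named, and the labels do not say whether the times come from 1 culture or 1 cycle.

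Heme is the iron porphyrin that carries oxygen chemistry in cytochromes, catalases and several sterol enzymes. Its synthesis begins in the mitochondrion with Hem1, passes through the cytosol, and ends in the mitochondrion, where the ferrochelatase Hem15 inserts iron. The steps of Hem13 and Hem14 use molecular oxygen. Hap1 is a transcription activator that responds to heme, and one of the genes it activates is ROX1. Rox1 is a repressor of genes needed when oxygen is scarce, HEM13 among them, and it also represses its own gene.

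With a single RNA-seq library per time there are no replicates, and errors are the scatter of neighbouring times or of libraries about a smooth curve. Levels are given in RPKM, reads scaled to gene length and library size, obtained by dividing the deposited coverage by a read length of 50 bases. Depth was estimated at 4364000 to 5958000 reads per library. The thinnest value was HEM13 at 260 min, with about 73.8 reads, and the largest HEM1 at 220 min, with about 3126 reads. The library at 0 min stood apart from the others of its end of the cycle. Over all genes tested its nearest library was 240 min (median absolute difference of 0.36 on the log2(RPKM + 1) scale), ahead of 260 min (0.50) and 20 min (0.56). The nearest library to 260 min was 20 min (0.37). Window differences that include 0 min are therefore also given without it. This choice was made from these same data, and 240 min lies in the window compared with that of 0 min. Leaving out 0 min raised the median difference of all genes between those windows from 0.12 to 0.25. Smaller p-values without 0 min are therefore no further support. The libraries sum RNA over a whole culture, so fewer cells expressing a gene and less RNA per cell cannot be told apart.

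HEM1, HEM13 and ROX1 were higher at 210 to 240 min than at 260, 0 and 20 min, and HEM15 was lower. HEM2 was highest at 0, 240 and 260 min, HEM14 dipped at 230 min, and HEM4 and HAP1 moved least. The genes of the first and the last enzyme thus moved in opposite directions. HEM1, HEM13, HEM15 and ROX1 were the 4 of the 10 that passed the test of that window difference. This is a count near the background, in which 27.4% of all genes were higher and 16.9% lower.

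**Figure D1:**
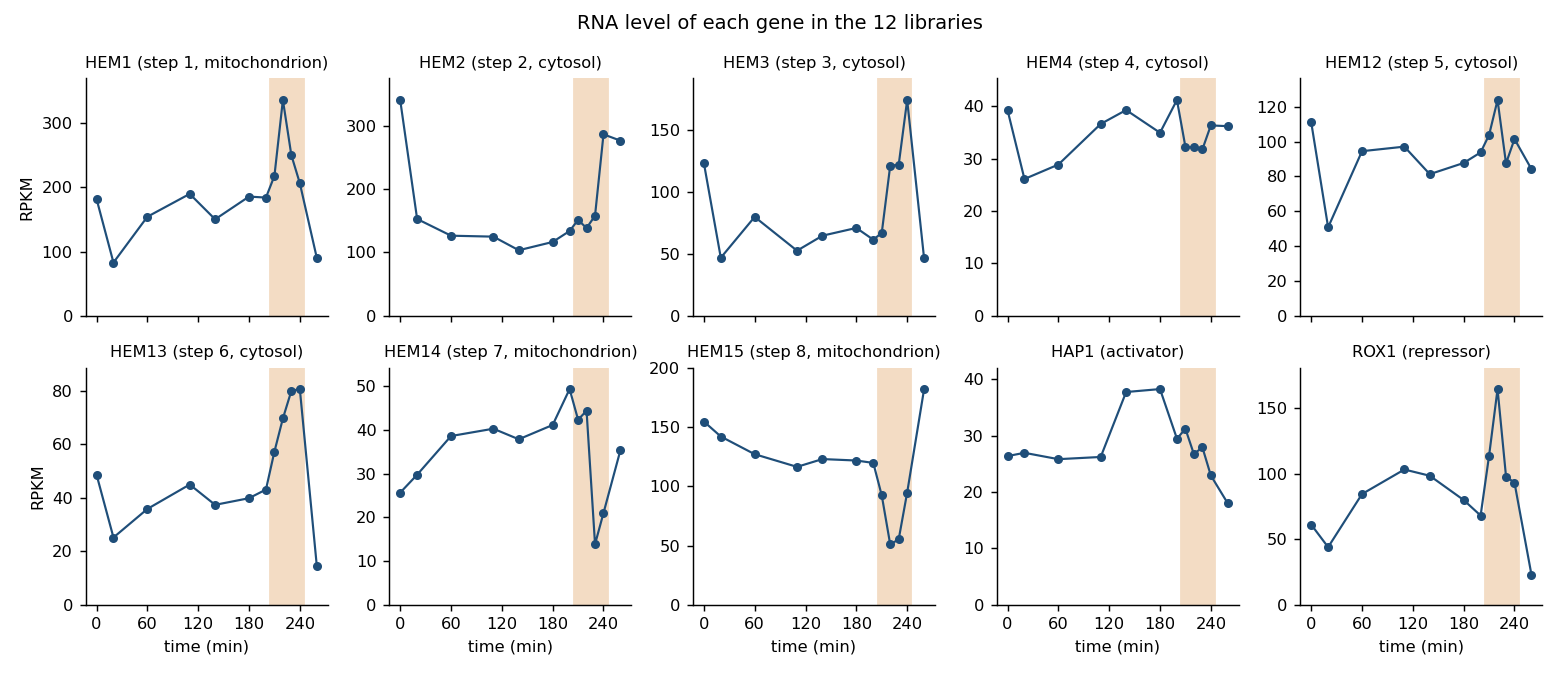
RPKM (vertical axes, each from 0) of the 10 genes against time in minutes, 1 point per library; the shaded band marks 210 to 240 min. HEM1, HEM13 and ROX1 have their 4 libraries of the band above all libraries at 260, 0 and 20 min, HEM15 has them below, and HEM2 is highest at 0 min.

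By mean level over the 12 libraries, the genes ran from HEM1 (186 RPKM) and HEM2 (176 RPKM) through HEM15 (115 RPKM), HEM12 (93.1 RPKM), HEM3 (86.1 RPKM) and ROX1 (85.9 RPKM) to HEM13 (48.1 RPKM), HEM14 (35.0 RPKM), HEM4 (34.6 RPKM) and HAP1 (28.1 RPKM). In this order ROX1 exceeded HEM13 in all 12 libraries. Every other pair of neighbours crossed: HEM1 exceeded HEM2 in 8 of 12 libraries, HEM3 exceeded ROX1 in 5, and HEM13 exceeded HEM14 in 6. Only the position of ROX1 above HEM13 thus held in each library among neighbours in the order.

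Change over the whole series was tested by fitting a smooth curve in minutes to every gene (a natural cubic spline with 4 degrees of freedom, limma F-test, adjusted p over all 6493 genes tested). Of all genes, 20.7% passed at 0.05. Among the 10 genes, 3 passed, ROX1, HEM15 and HEM2, a share to be read against that background, and the count ran from 0 to 6 when single libraries were left out (6 without 0 min, 0 without 210, 220, 230, 240 or 260 min). The count over all 6493 genes moved in the same way, to 3309 without 0 min and to 277 without 240 min. HEM13 (adjusted p = 0.0741), HAP1 (0.0805) and HEM1 (0.106) did not pass, nor did HEM3, HEM4, HEM12 and HEM14 (0.389 to 0.819). Short changes were tested between windows of neighbouring times: 210, 220, 230 and 240 min; 260, 0 and 20 min; and 110, 140, 180 and 200 min. In those tests the times of a window stand in for replicates. The error was pooled over the 3 windows. Leaving out a library outside a comparison thus changed the p-value and not the difference.

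In 210 to 240 min against 260, 0 and 20 min, 27.4% of all genes were higher and 16.9% lower (limma, adjusted p of at most 0.05). Of the 10 members 3 were higher and 1 was lower, again shares near the background. Without 0 min 5 were higher and 1 lower, where 33.9% of all genes were higher and 16.8% lower, and the members' median was 0.47 against 0.25 for all genes. HEM2, HEM4, HEM14 and HAP1 did not pass with 0 min or without it (-0.23, 0.10, -0.24 and 0.28 without it, adjusted p of 0.323 to 0.661). The libraries of the windows did not overlap for 4 members, the same 4 genes, against 38.7% of all genes. The median difference was 0.30 over the members and 0.12 over all genes on the log2(RPKM + 1) scale. Scaling by median ratios moved the median of all genes to -0.03, and quantile normalization moved it to -0.11. The calls of HEM1, HEM13, HEM15 and ROX1 held in all 20 alternatives tried for this difference, these scalings included.

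**Figure D2:**
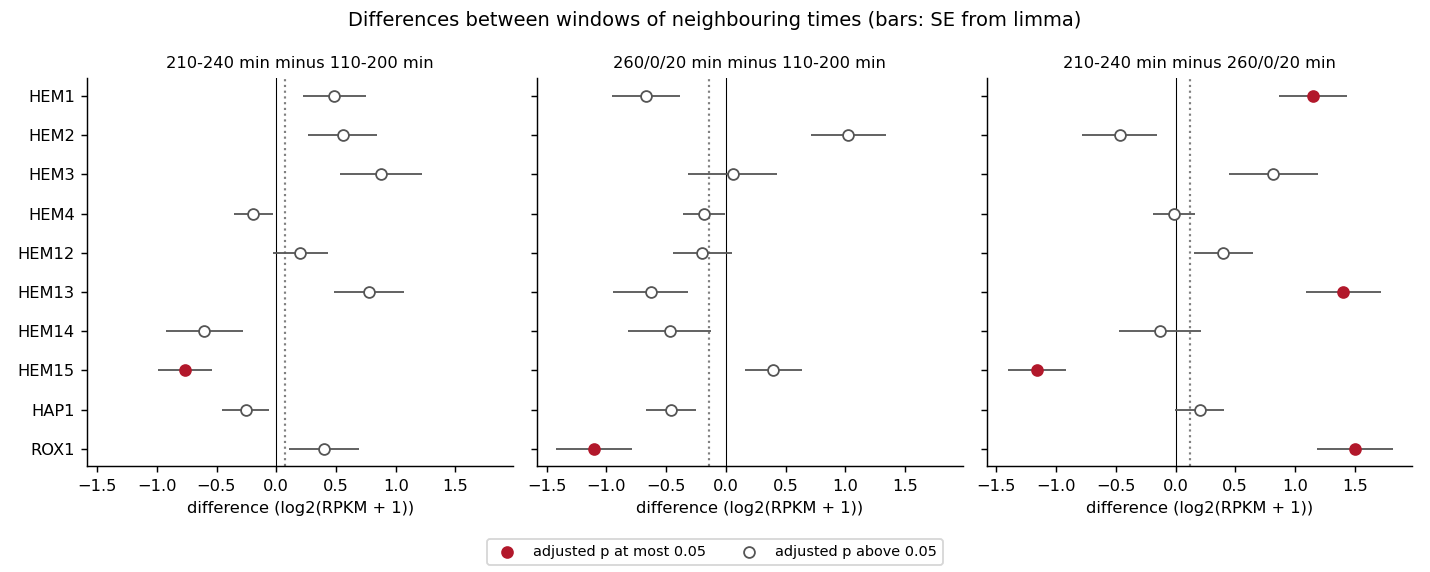
Differences between windows (horizontal axes, log2(RPKM + 1), with SE from limma) for the 10 genes; filled points passed at an adjusted p of 0.05 and the dotted line is the median of all genes. In the right panel ROX1 lies at 1.50, HEM13 at 1.40, HEM1 at 1.15 and HEM15 at -1.16.

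HEM1 (YDR232W, chromosome IV, 927452 to 929098, build R64) encodes 5-aminolevulinate synthase, which joins glycine and succinyl-CoA in the first step. It had 182, 82.8, 154, 190, 150, 186, 184, 218, 336, 250, 206 and 90.3 RPKM from 0 to 260 min in order of time. The 4 libraries from 210 to 240 min were the highest of the series, and 20 and 260 min were the lowest, with 0 min among the middle values. The mean log2(RPKM + 1) was 7.96 at 210 to 240 min and 6.81 at 260, 0 and 20 min, a difference of 1.15 ± 0.29 (SE; limma, adjusted p = 0.00767). Without 0 min that difference was 1.51 (adjusted p = 0.000462), and over all alternatives it lay between 0.94 and 1.57. The smooth curve over the series called HEM1 without 0 or without 20 min (limma, adjusted p of 0.00203 and 0.0138). Relative to 110 to 200 min, HEM1 differed by 0.49 ± 0.26 at 210 to 240 min (adjusted p = 0.182) and by -0.67 ± 0.29 at 260, 0 and 20 min (0.164). The second of these passed without 0 min, at -1.02 (adjusted p = 0.0101).

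HEM2 (YGL040C, chromosome VII, 419527 to 420555) encodes porphobilinogen synthase, the first cytosolic step. It had 340, 153, 126, 125, 103, 116, 134, 151, 138, 158, 286 and 276 RPKM at the 12 times. The 3 libraries at 240, 260 and 0 min were the highest, and those from 60 to 200 min the lowest. Its range along the fitted curve was 1.57 ± 0.38 (SE; limma, adjusted p = 0.0445). That call was lost when 140, 180, 200, 210, 220, 230, 240 or 260 min was left out (adjusted p of 0.0686 to 0.119). At 260, 0 and 20 min HEM2 stood 1.02 ± 0.31 above 110 to 200 min, a difference that did not pass (adjusted p = 0.0522). Median-ratio scaling brought it past the threshold (adjusted p = 0.0113), as did leaving out 20 or 240 min (0.0244 and 0.0245). As 240 min is in neither window, leaving it out kept the difference at 1.02. Without 0 min, its highest library, the difference was 0.78 (adjusted p = 0.115), and without 260 min it was 0.93 (0.18). All libraries of the first window exceeded all of the second, which held in either direction for 27.8% of all genes. HEM2 had its highest library at 0 min and HEM1 at 220 min, and the ratio of their levels was 0.412 at 220 min, 1.39 at 240 min, 3.06 at 260 min. The difference in timing between the genes was not tested.

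HEM3 (YDL205C, chromosome IV, 92762 to 93745) encodes porphobilinogen deaminase. It had 124, 47.0, 80.0, 52.7, 64.8, 71.1, 61.6, 67.0, 122, 122, 175 and 46.3 RPKM at the 12 times. The libraries at 220, 230, 240 and 0 min were high, and 260 min was the lowest of all. HEM3 did not pass in any window difference, with 0.82 ± 0.37 for 210 to 240 min minus 260, 0 and 20 min (limma, adjusted p = 0.0915). Without 0 min this difference was 1.28 and without 210 min 1.08 (adjusted p of 0.00683 and 0.0252). The difference between 210 to 240 min and 110 to 200 min, 0.88 ± 0.34 (adjusted p = 0.0758), also passed without 0 or 210 min (0.0252 and 0.0226). As 0 min is in neither of these windows, leaving it out kept that difference at 0.88. At 260, 0 and 20 min HEM3 differed from 110 to 200 min by 0.06 ± 0.37 (adjusted p = 0.946), and without 0 min by -0.41 (0.41).

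HEM4 (YOR278W, chromosome XV, 842817 to 843644) and HEM12 (YDR047W, chromosome IV, 551860 to 552948) encode the synthase and the decarboxylase of uroporphyrinogen III. HEM4 ran between 26.1 (20 min) and 41.2 RPKM (200 min), the narrowest range among the members (0.64 on the log2(RPKM + 1) scale, against a median of 1.64 over all genes). HEM12 ran between 50.8 (20 min) and 124 RPKM (220 min), and its other 10 libraries between 81.3 and 111 RPKM. Neither gene passed in the smooth curve or in a window difference (limma, adjusted p of 0.207 to 0.958). Without 0 min HEM12 was higher at 210 to 240 min than at 260 and 20 min, by 0.65 (adjusted p = 0.0373).

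HEM13 (YDR044W, chromosome IV, 546642 to 547628) encodes coproporphyrinogen III oxidase, an oxygen-using step whose gene is known for its induction when oxygen or heme is low. It had 48.7, 25.2, 35.8, 45.0, 37.4, 39.9, 43.1, 57.3, 69.7, 80.0, 80.7 and 14.6 RPKM at the 12 times. The 4 libraries from 210 to 240 min were above all others, and 260 min, which followed the highest, was the lowest. Between 240 and 260 min the level fell by 2.38 on the log2(RPKM + 1) scale, and 10.9% of all genes moved further in either direction across that step. This step rests on 1 library at each end and has no test. The mean was 6.17 at 210 to 240 min and 4.77 at 260, 0 and 20 min, a difference of 1.40 ± 0.31 (limma, adjusted p = 0.00456). Without 0 min the difference was 1.84 and without 260 min 1.00 (adjusted p of 0.000125 and 0.0208). Against 110 to 200 min the rise at 210 to 240 min was 0.77 ± 0.29 and did not pass (adjusted p = 0.0659), although the libraries did not overlap, as for 37.5% of all genes. It passed without 0 or 260 min (adjusted p of 0.0139 to 0.033), with quantile normalization and with 60 min added to the earlier times (0.00581 to 0.0346, over both and the windows without 0 and 210 min). Neither 0 nor 260 min is in the windows compared, so without them the difference stayed at 0.77 and only the error and the adjustment changed. Without 0 min HEM13 was also lower at 260 and 20 min than at 110 to 200 min, by -1.06 (adjusted p = 0.00857). The smooth curve called HEM13 without 0, 20, 60 or 110 min (adjusted p of 0.00131 to 0.0393), with median-ratio scaling and with 5 degrees of freedom.

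HEM14 (YER014W, chromosome V, 182600 to 184219) encodes protoporphyrinogen oxidase of the mitochondrion, the other oxygen-using step. It had 25.7, 29.8, 38.6, 40.3, 37.9, 41.2, 49.4, 42.4, 44.4, 13.9, 21.0 and 35.4 RPKM at the 12 times. It was low at 230 and 240 min and also at 0 min, and 220 min was still among the high libraries. Between 220 and 230 min it fell by 1.61 on the log2(RPKM + 1) scale, and 3.99% of all genes moved further in either direction. No window difference passed (limma, adjusted p of 0.174 to 0.779), and the window of 210 to 240 min holds both sides of the dip. The antisense gene BUD25 (YER014C-A, chromosome V, 183731 to 184700) overlaps HEM14 over 489 bases. The level of BUD25 was 32.1 RPKM (220 min), 9.59 RPKM (230 min) and 17.0 RPKM (240 min), so both genes were low at 230 and 240 min. The library kit does not mark strand, so reads of the genes in the shared stretch cannot be told apart.

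HEM15 (YOR176W, chromosome XV, 662401 to 663582) encodes ferrochelatase, the last step. It had 155, 142, 127, 117, 123, 122, 120, 92.4, 51.0, 55.3, 94.8 and 182 RPKM at the 12 times. The 4 libraries from 210 to 240 min were below all others, with the lowest at 220 min, and 260 min was the highest. The mean log2(RPKM + 1) was 6.16 at 210 to 240 min and 7.32 at 260, 0 and 20 min, a difference of -1.16 ± 0.24 (limma, adjusted p = 0.00332; -1.18 without 0 min). Against 110 to 200 min the difference was -0.76 ± 0.22 at 210 to 240 min (adjusted p = 0.0335). In that comparison 14.2% of all genes were higher and 12.6% lower, and HEM15 was the only member called. The call was lost without 110, 140, 180, 200, 220 or 230 min (adjusted p of 0.0674 to 0.101). In each of these settings 0 of all genes were called higher and 0 lower, and the HEM15 difference stayed between -0.78 and -0.61. The range of the fitted curve was 1.41 ± 0.37 (adjusted p = 0.0384), a call lost without 200, 210, 220, 230, 240 or 260 min (0.0508 to 0.296).

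**Figure D3:**
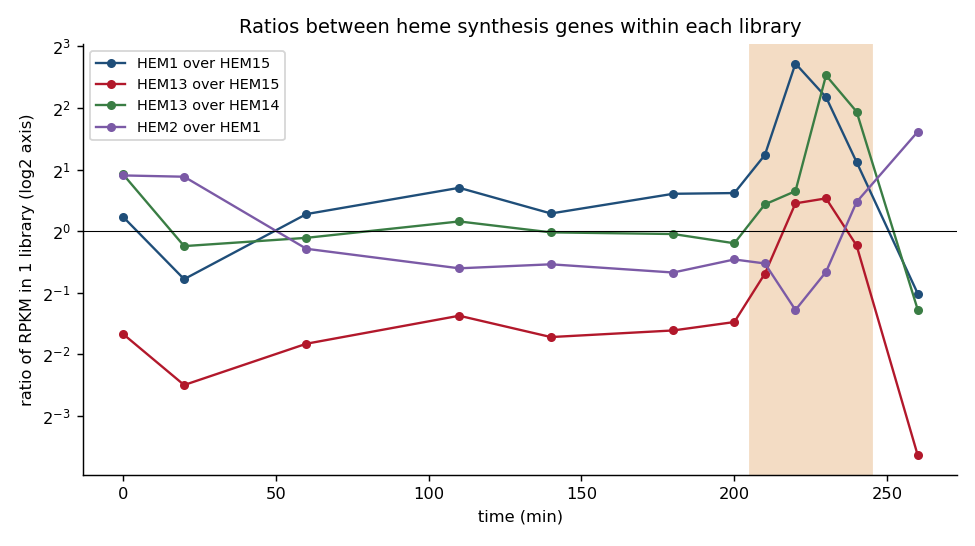
Ratio of RPKM between heme synthesis genes within each library (vertical axis, log2 scale) against time in minutes; the shaded band marks 210 to 240 min. HEM1 over HEM15 reaches 6.59 at 220 min and stands at 0.496 at 260 min, and HEM13 over HEM14 reaches 5.77 at 230 min.

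Ratios within 1 library do not depend on the scaling between libraries. The ratio of HEM1 to HEM15 was 1.17 (0 min), 0.582 (20 min), between 1.21 and 1.63 from 60 to 200 min, then 2.36, 6.59, 4.52 and 2.18 from 210 to 240 min, and 0.496 at 260 min. The ratio of HEM13 to HEM15 was 1.37 at 220 min, 1.45 at 230 min and 0.0803 at 260 min. Among the 12 libraries, HEM1 thus stood furthest above HEM15 at 220 min and furthest below it at 260 min. HEM13 to HEM14, the pair of oxygen-using steps, stood between 0.413 at 260 min and 5.77 at 230 min, with the overlap of HEM14 and BUD25 applying to it. HEM13 to HEM12, the neighbouring cytosolic steps, kept within 0.379 and 0.495 from 0 to 200 min, and was 0.914 at 230 min and 0.174 at 260 min. These ratios have 1 value per time and no test.

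HAP1 (YLR256W, chromosome XII, 646415 to 650923) encodes the heme-responsive activator. It had 26.4, 26.9, 25.8, 26.2, 37.7, 38.2, 29.5, 31.2, 26.7, 27.9, 22.9 and 18.0 RPKM at the 12 times. The highest libraries were 140 and 180 min and the lowest 260 min, and the windows overlapped in every comparison. HAP1 did not pass in a window difference (limma, adjusted p of 0.192 to 0.45). Its range of fitted values, 0.96 ± 0.24, passed without 0 min (adjusted p = 0.0472). In the reference strain S288C this gene is interrupted near its end by a Ty1 element, and the annotation places the Ty1 open reading frame YLR256W-A 193 bases behind it. The allele carried by these cells is not given in the labels.

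ROX1 (YPR065W, chromosome XVI, 679693 to 680799) encodes the repressor. It had 61.1, 43.9, 84.4, 103, 98.4, 79.9, 68.0, 114, 164, 97.8, 93.0 and 23.0 RPKM at the 12 times. The peak was at 220 min, 20 and 260 min were low, and a second, lower rise ran from 60 to 140 min. ROX1 had the widest range of the members, 7.14-fold in RPKM between 220 and 260 min. The mean was 6.85 at 210 to 240 min and 5.34 at 260, 0 and 20 min, a difference of 1.50 ± 0.32 (limma, adjusted p = 0.00351; 1.81 without 0 min and 1.12 without 260 min). Against 110 to 200 min ROX1 differed by 0.40 ± 0.29 at 210 to 240 min, which did not pass (limma, adjusted p = 0.319). It passed in 0 of 20 alternatives, and the libraries of these windows overlapped. At 260, 0 and 20 min ROX1 was lower than at 110 to 200 min, by a log2 difference of -1.10 ± 0.32 (adjusted p = 0.0415). There 4.2% of all genes were higher and 8.58% lower, and ROX1 was the only member called. Without 0 min the difference was -1.41 (adjusted p = 0.00883), and 3 members were lower, ROX1, HEM1 and HEM13, where 18.1% of all genes were lower. HEM4, HEM12, HEM14, HEM15 and HAP1 did not pass there without 0 min either (adjusted p of 0.125 to 0.582). Median-ratio scaling ended that call (adjusted p = 0.082), as did leaving out 20, 110, 140, 180, 200, 210, 230 or 260 min (0.0507 to 0.182). The fitted range of 2.23 ± 0.45 (adjusted p = 0.0289) lost its call without 210, 220, 230, 240 or 260 min (0.0946 to 0.279).

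ROX1 and its known target HEM13 moved in the same direction between these windows. Both stood at their lowest at 260 min. The highest ROX1 library was 220 min, and HEM13 was nearly level at 230 and 240 min (80.0 and 80.7 RPKM), its highest libraries. The difference in timing between ROX1 and HEM13 was not tested. The ratio of HEM13 to ROX1 was between 0.38 at 140 min and 0.867 at 240 min. Across the 12 libraries the Pearson correlation of log2(RPKM + 1) was 0.83 between HEM13 and ROX1, 0.89 between HEM1 and HEM13 and 0.86 between HEM1 and ROX1. It was -0.82 between HEM1 and HEM15 and -0.80 between HEM13 and HEM15, and 0.52 between HAP1 and ROX1. These are descriptions over libraries of 1 time series that share the course of the cycle.

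**Figure D4:**
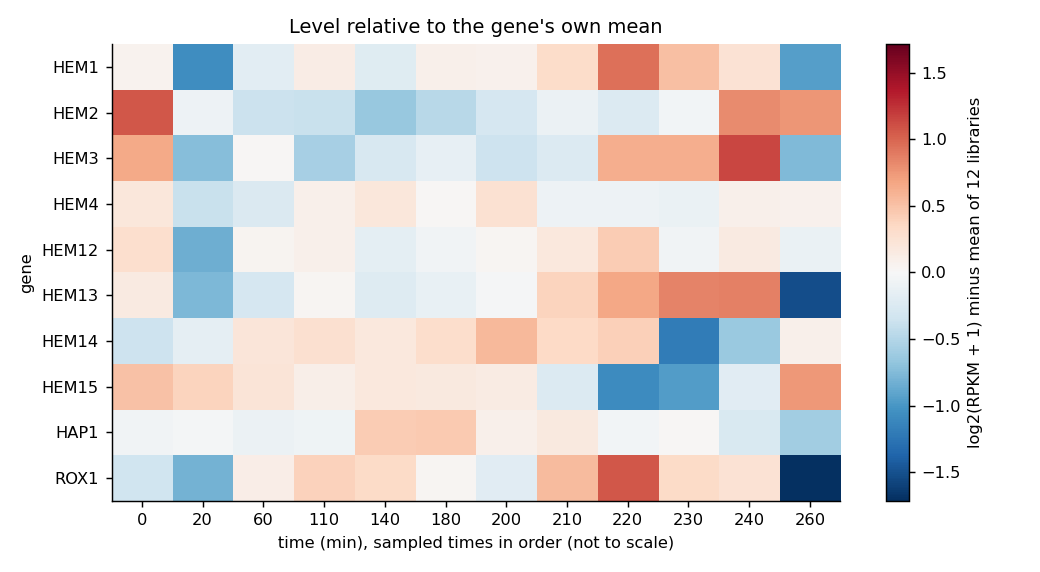
Level of each gene (rows) at each sampled time (columns, in order, not to scale) as log2(RPKM + 1) minus its mean over the 12 libraries; red is above and blue below the mean. HEM1, HEM13 and ROX1 are red from 210 to 240 min and blue at 20 and 260 min, while HEM15 is blue from 210 to 240 min and red at 260 min.

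Of the 10 members, 4 had their lowest library at 260 min and 3 at 20 min, times at which 19.9% and 26.1% of all genes had theirs. The highest library was 220 min for 3 members, as for 17.5% of all genes. The genes most like HEM1 over the 12 libraries, among the 5024 named genes averaging 10 RPKM or more, were TAT2, a tryptophan permease (Pearson r = 0.99), PAC10, a prefoldin subunit (0.98), and ATM1, a mitochondrial exporter (0.98). Most like HEM13 were ARD1, a subunit of an N-terminal acetyltransferase (0.99), PRO1, a proline synthesis kinase (0.99), and NPL6, of a chromatin remodeling complex (0.98). Most like ROX1 were HSU1 (0.98), NSE5 (0.95) and RER2 (0.95). HAP1 had looser neighbours, THI74 (0.90), AKR2 (0.89) and ARV1 (0.88).

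In the annotation, 3 measured genes share an upstream region of under 1 kb with a member that is read in the opposite direction. COX20, of cytochrome oxidase assembly, starts 541 bases from HEM1. It was lowest at 220 min (101 RPKM), where HEM1 was highest, and highest at 260 min (283 RPKM), where HEM1 was low (Pearson r = -0.70). ALE1, a lysophospholipid acyltransferase gene, starts 726 bases from HEM15. Its level was 33.9 RPKM (220 min) against 79.3 RPKM (260 min), and it followed HEM15 (r = 0.95). YLR255C, 461 bases from HAP1, stayed between 0.872 and 4.85 RPKM. A shared upstream region thus went with opposite courses at HEM1 and with parallel ones at HEM15.

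Of 7 genes whose enzymes make or use glycine or succinyl-CoA, the substrates of Hem1, 3 were higher and 2 lower at 210 to 240 min than at 260, 0 and 20 min, against 27.4% and 16.9% of all genes. The list's median was -0.73, and that of all genes 0.12. The 3 higher were genes of glycine metabolism: SHM2 and SHM1, the cytosolic and mitochondrial serine hydroxymethyltransferases, by 2.31 ± 0.60 and 0.54 ± 0.18 (limma, adjusted p of 0.00952 and 0.0302), and the threonine aldolase gene GLY1 by 1.85 ± 0.38 (0.00301). Both subunits of succinyl-CoA ligase were lower, LSC1 by -1.42 ± 0.34 and LSC2 by -1.62 ± 0.45 (0.00616 and 0.0137). KGD1 and KGD2 of the 2-oxoglutarate dehydrogenase, which makes succinyl-CoA, did not pass (-1.04 ± 0.45 and -0.73 ± 0.44; adjusted p of 0.0794 and 0.193). Without 0 min the same 5 genes passed, with 2.83 for SHM2, 0.62 for SHM1, 2.29 for GLY1, -1.71 for LSC1 and -1.91 for LSC2. In that setting 33.9% of all genes were higher and 16.8% lower. GLY1 was at 492 RPKM (220 min) against 67.0 RPKM (260 min) and also passed in the smooth curve (adjusted p = 0.0334), a call lost without 200, 210, 220, 230, 240 or 260 min (0.0569 to 0.175). The genes lower were 4 without 240 min. Without 260 min 1 was lower (547 of all genes, against 1100 with all libraries), and LSC2 lost its call (0.065). That of SHM1 was lost with median-ratio scaling (0.0693) and without 20, 180, 220, 230 or 260 min (0.0506 to 0.0902).

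Of 14 genes of heme branches and handling, 5 were higher and 3 lower in the same comparison, against 27.4% and 16.9% of all genes, and 6 did not pass. The list's median was -0.50, and that of all genes 0.12. Higher were the siroheme genes MET1 (2.56 ± 0.50, limma, adjusted p = 0.00241) and MET8 (0.96 ± 0.33, 0.0316), whose products divert the product of Hem4. PUG1, a plasma membrane protein that moves heme and protoporphyrin, rose by 1.52 ± 0.25 (0.00109). MCX1, a mitochondrial ClpX protein that activates Hem1, rose by 1.40 ± 0.23 (0.00105), and the mitochondrial iron carrier gene MRS3 rose by 1.11 ± 0.30 (0.0125). Lower were the genes of heme A synthesis, COX10 (-1.93 ± 0.42, 0.00391) and COX15 (-1.73 ± 0.30, 0.00139), and CYT2 (-1.81 ± 0.41, 0.00513), the heme lyase of cytochrome c1. CYC3, the heme lyase of cytochrome c, did not pass (-0.13 ± 0.27, 0.707). Without 0 min the same 8 genes passed, with differences of 1.41 (MET8) to 3.15 (MET1) for those higher and of -1.99 (COX15) to -1.83 (CYT2) for those lower. In that setting 33.9% of all genes were higher and 16.8% lower. COX10 was at 15.5 RPKM (220 min) against 137 RPKM (260 min), and CYT2 at 47.7 RPKM (220 min) against 419 RPKM (260 min). In the smooth curve 6 of the 14 passed, against 20.7% of all genes. They were COX10 and CYT2 (adjusted p of 0.00415 each), PUG1 (0.00877), MCX1 (0.0166), MRS3 (0.0234) and COX15 (0.0287). That count was 2 without 220 or 240 min and 10 without 0 or 20 min. The calls of COX10, COX15, CYT2, MET1, PUG1 and MCX1 held in all 20 alternatives for this difference. MET8 lost its call without 20, 220, 230, 240 or 260 min (0.0558 to 0.141) and with quantile normalization (0.183), and MRS3 without 20 or 260 min (0.0507 and 0.0673), so that 3 were higher without either of these. With median-ratio scaling or quantile normalization 6 genes of the list were lower in place of 3, and without 210 or 240 min 5. With these scalings the median of all genes moved to -0.03 and -0.11. Of all genes, 1721 were lower with quantile normalization and 1400 without 210 min, against 1100 in the unscaled fit of all libraries.

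**Figure D5:**
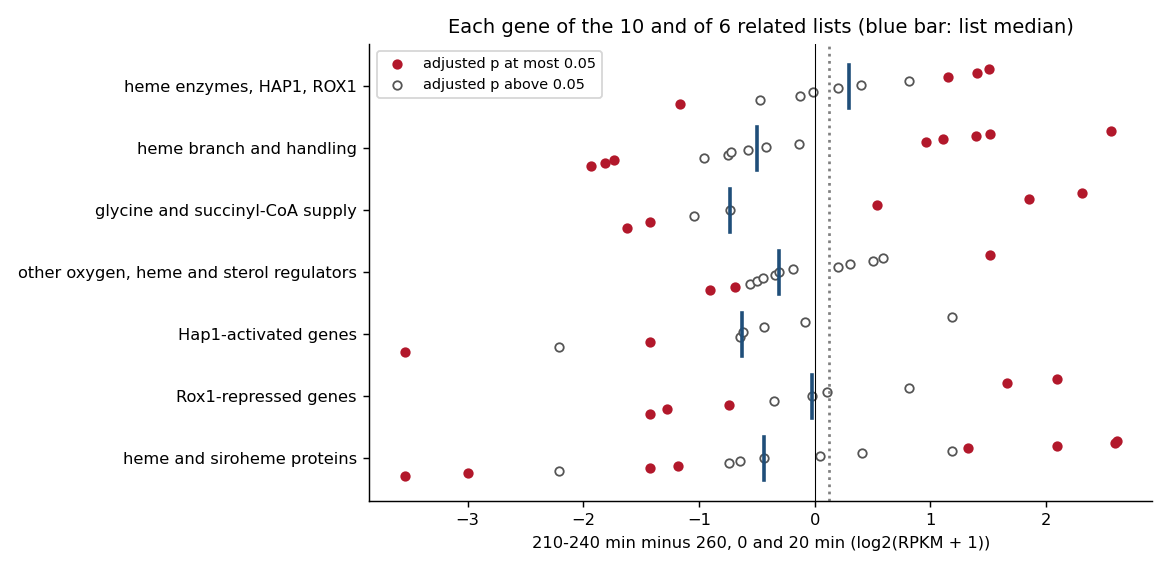
Difference between 210 to 240 min and 260, 0 and 20 min (horizontal axis, log2(RPKM + 1)) for each gene of the members and of 6 related lists; filled points passed at an adjusted p of 0.05, blue bars are list medians and the dotted line is the median of all genes. Called genes lie on both sides in each list except the genes activated by Hap1, where both called genes are lower.

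Of 15 genes for heme and siroheme proteins, 4 were higher and 4 lower in the same comparison, against 27.4% and 16.9% of all genes. The list's median was -0.43, and that of all genes 0.12. Higher were ERG11 and ERG5, the sterol cytochromes P450 (2.09 ± 0.40 and 1.32 ± 0.44, limma, adjusted p of 0.00212 and 0.0299), the cytochrome b5 gene CYB5 (2.61 ± 0.62, 0.00611) and MET5 of sulfite reductase (2.59 ± 0.49, 0.00203). Lower were the lactate dehydrogenase gene CYB2 (-3.54 ± 0.88, 0.00772), the catalase gene CTA1 (-3.00 ± 0.96, 0.0257), the cytochrome c peroxidase gene CCP1 (-1.18 ± 0.31, 0.0103) and CYC7, a cytochrome c isoform (-1.42 ± 0.49, 0.0346). CYB5 was at 338 RPKM (220 min) against 8.60 RPKM (260 min). CTT1, the cytosolic catalase, ran between 333 RPKM (60 min) and 2.93 RPKM (230 min) and passed in the smooth curve (adjusted p = 0.0483) but not between these windows (-2.21 ± 0.94, 0.0748). The curve called 4 of the 15, CTT1, CYB5 (0.00415), ERG11 (0.00421) and ERG5 (0.0244), against 20.7% of all genes. That count was 2 without 210, 230 or 240 min and 11 without 0 min. Without 0 min 6 were higher and 5 lower, against 33.9% and 16.8% of all genes. The 8 genes called with 0 min also passed without it, with 2.42 for ERG11, 1.89 for ERG5, 2.80 for CYB5, 3.28 for MET5, -4.51 for CYB2, -4.20 for CTA1, -1.47 for CCP1 and -1.81 for CYC7. The genes lower were 2 without 20, 220 or 240 min and 1 without 260 min. Of all genes, 547 were lower without 260 min and 1100 with all libraries. ERG5 lost its call without 20, 210, 230 or 260 min (0.0585 to 0.151), CTA1 without 20, 220, 230, 240 or 260 min (0.0569 to 0.114), CYC7 without the same libraries (0.064 to 0.126) and CCP1 without 260 min (0.0547). CTT1 lost that of the curve without 200, 210, 220, 230 or 240 min (0.0669 to 0.267). The CTT1 call was also lost with 3 degrees of freedom, median-ratio scaling, a pseudocount of 0.1 or the values as deposited (0.0514 to 0.244). In the window difference CTT1 passed without 0 or 210 min (0.0243 and 0.00221).

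Among 8 genes known to be activated by Hap1, 2 were lower in this comparison, CYB2 and CYC7 of the list above, and the other 6 did not pass. Of all genes 27.4% were higher and 16.9% lower. The list's median was -0.63, and that of all genes 0.12. The genes lower were 4 without 210 min and 1 without 20, 220, 230, 240 or 260 min, and without 0 min 3 were lower and 1 was higher, the flavohemoglobin gene YHB1 (2.11, adjusted p = 0.00752). Over all genes, 1400 were lower without 210 min and 547 without 260 min, and without 0 min 33.9% were higher and 16.8% lower. Among 9 genes known to be repressed by Rox1, 2 were higher and 3 lower, against 27.4% and 16.9% of all genes. For this list the median was -0.02, and that of all genes 0.12. Without 0 min 1 was higher (ERG11) and 2 lower (HMG2 and CYC7), against 33.9% and 16.8% of all genes. The differences were then -1.43 for HMG2, 1.39 for ANB1 and -0.75 for COX5B. ERG11 was higher, with 963 RPKM (220 min) against 96.7 RPKM (260 min). ANB1, a translation factor gene of low oxygen, was also higher (1.66 ± 0.59, limma, adjusted p = 0.0376), at a level of at most 35.3 RPKM. HMG2, an HMG-CoA reductase gene, was lower (-1.28 ± 0.24, 0.00211), with CYC7 and the cytochrome oxidase isoform gene COX5B (-0.74 ± 0.27, 0.0449). ANB1 lost its call without 0, 20, 200, 220, 230 or 260 min (0.05 to 0.106) and with either scaling or without both 0 and 210 min (0.0712 to 0.182), which left 1 gene higher, and COX5B without 0, 20, 110, 140, 200, 210, 220, 230 or 260 min (0.0593 to 0.108). Without 20, 220, 230 or 260 min 1 gene was lower. HMG2 was also called by the smooth curve (0.0453), lost without 200, 210, 220, 230, 240 or 260 min (0.0621 to 0.356).

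Of 13 other regulators of oxygen, heme and sterol genes, 1 was higher and 2 lower at 210 to 240 min than at 260, 0 and 20 min, against 27.4% and 16.9% of all genes. The list's median was -0.31, and that of all genes 0.12. UPC2, the sterol-responsive activator, was higher by 1.51 ± 0.25 (limma, adjusted p = 0.000898), with 26.6 RPKM (230 min) against 5.97 RPKM (260 min). HAP2, a subunit of the CCAAT-binding complex, was lower by -0.91 ± 0.19 (0.00376), and the UPC2 paralog ECM22 by -0.69 ± 0.24 (0.0351), a call lost without 20, 200, 220 or 260 min (0.0508 to 0.147). HAP4, the activating subunit of the same complex, ran between 74.1 RPKM (220 min) and 642 RPKM (0 min), and its difference did not pass (-0.45 ± 0.60, 0.558). Without 0 min 2 were higher and 2 lower, against 33.9% and 16.8% of all genes. The differences were then 1.67 for UPC2, 0.99 for HAP3, -0.89 for HAP2 and -0.83 for ECM22, and HAP4 was at 0.05 (limma, adjusted p = 0.959). Without 200, 220 or 260 min 1 was lower, and median-ratio scaling and quantile normalization gave 4 and 5 lower. With these scalings the median of all genes moved to -0.03 and -0.11. Of all genes, 547 were lower without 260 min and 1721 with quantile normalization, against 1100 in the unscaled fit of all libraries. The smooth curve called UPC2 (0.00813) and SUT1, a regulator of sterol uptake (0.0479). UPC2 lost that call without 220, 230 or 240 min (0.0507 to 0.0752), and SUT1 kept it without 0 or 20 min only (0.0521 to 0.155 without the others). At 210 to 240 against 110 to 200 min, 14.2% of all genes were higher and 12.6% lower. There 0 of 8 genes activated by Hap1 were higher and 4 lower, and of 15 heme protein genes 1 and 5. The counts were 2 and 2 for heme handling and for Rox1, 0 and 1 for these regulators, and 0 and 0 for glycine and succinyl-CoA. Without 110, 140, 180, 200, 220 or 230 min 0 of all genes were called in that comparison.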

How the data were processed

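RNA-seq libraries of 12 times were analysed, and the MNase-seq samples of the series were not used. The submitters' processing notes name Bowtie2 and build R64; the read counter is not given in the sources used here. Values deposited for each gene are a signal headed RKPM in the file. It summed to 41456100 to 44803200 per library after multiplication by gene length in kilobases, so it was read as per-base coverage scaled to library size. Of 1232 low values, 327 fell at multiples of 50 bases, and the signal was divided by 50. This rests on the values and on no stated method, and the tests had been planned for RPKM. Depth came from the same steps and is an estimate, so no counting interval was made. The second deposited table, a fraction of each gene's maximum, equalled the first divided by that maximum to within 2.22e-16 and was not used further. The file's 4 empty lines were dropped. Columns were matched by time point number.

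Of 6562 genes, 5891 matched the RefSeq table of R64, the source of symbols, coordinates and neighbours. The 671 others have no coordinates here, so overlaps with them were not looked for.

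Tests ran on log2(RPKM + 1) with limma 3.58.1 in R, with the prior spread following the mean level, for 6493 genes averaging 1 RPKM or more. The fits were run on simulated data, with independent noise about flat levels and known changes added to some genes. Such data lack the courses within a window that count as error here, so they do not check the error of the real libraries. Folds on this scale understate those of low genes. P-values were adjusted by Benjamini-Hochberg over all genes, separately for each comparison. The spline left 7 residual degrees of freedom and the windows 8 (60 min is in no window). The p-values measure scatter between times, not between cultures. Members, lists and windows were chosen with earlier results of these data known. Named by rule are the 10 members, the up to 2 widest genes of each list that passed in the smooth curve, the 3 most correlated genes for HEM1, HEM13, HAP1 and ROX1, and genes that overlap a member or share its upstream region. The other list genes named were chosen after their values were seen. Alternatives were other scalings, pseudocounts, filters, curves and windows, and leaving out each library.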

Additional observations from a re-analysis of the deposited data

How the results depend on the processing

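Over the members' fitted ranges and window differences, 761 alternative results kept their side of the threshold, 37 lost a call and 32 gained one. No called difference of a member changed sign, while differences of HEM3, HEM4, HEM12, HEM14 and HAP1 that did not pass did so in some settings. With 3 degrees of freedom 0 of 10 members and 145 genes in all varied over time. Of the list genes called by the curve with 4, only COX10, CYT2, PUG1 and ERG11 kept that call with 3. The calls of GLY1, UPC2, SUT1, HMG2 and CTT1 were among those lost. The count of all genes was 2589 with 5 degrees of freedom, 2657 with time point number, and 3031 with median-ratio scaling and 5 degrees of freedom together, a setting chosen after seeing the data. Quantile normalization gave 1 member and 60 min with 110 to 200 min gave 1 member higher at 210 to 240 than at 110 to 200 min. In the main fit 0 members and 14.2% of all genes were higher there. With quantile normalization 452 genes were higher at 260, 0 and 20 than at 110 to 200 min, and 1721 were lower at 210 to 240 than at 260, 0 and 20 min. At 260, 0 and 20 against 110 to 200 min, median-ratio scaling gave 1 member higher and 0 lower, and 60 min with the earlier times gave 1 higher. In the main fit 0 members were higher and 1 lower there, against 4.2% and 8.58% of all genes. Windows without 0 and 210 min were also chosen after seeing the data. They gave 3 members higher at 210 to 240 than at 110 to 200 min (1441 genes higher and 1237 lower). At 260, 0 and 20 against 110 to 200 min they gave 3 members lower (1237 genes). At 210 to 240 against 260, 0 and 20 min they gave 5 members higher. The nearest backgrounds given for that count are 27.4% of all genes with all libraries and 33.9% without 0 min.

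Leaving out single libraries moved the genes varying over time between 277 (without 240 min) and 3309 (without 0 min), and the members between 0 and 6. For 210 to 240 minus 110 to 200 min the genes higher ran from 0 to 1281 and lower from 0 to 1134, the members higher from 0 to 2 and lower from 0 to 1. For 260, 0 and 20 minus 110 to 200 min the genes higher ran from 136 to 322 and lower from 198 to 1172, the members higher from 0 to 1 and lower from 0 to 3. For 210 to 240 minus 260, 0 and 20 min the genes higher ran from 1266 to 2199 and lower from 547 to 1400, the members higher from 3 to 5, and 1 lower throughout. The causes were not tested. No paired analysis was possible because each time has 1 library. The lowest member values rest on about 73.8 reads, which limits what can be said of small changes there.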

Other observations

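The step that would close the cycle, 0 min against 260 min, was not level for several members. HEM13 was at 48.7 RPKM (0 min) against 14.6 RPKM (260 min), ROX1 at 61.1 against 23.0 RPKM, HEM3 at 124 against 46.3 RPKM, and HEM1 at 182 against 90.3 RPKM. HEM15 was at 155 RPKM (0 min) against 182 RPKM (260 min). The median gene was 0.25 higher at 0 min on the log2(RPKM + 1) scale. Of all genes, 8.09% moved further in either direction than HEM13, 12.2% than HEM3, 12.6% than ROX1 and 22.2% than HEM1. Between 0 and 20 min, HEM1, HEM2, HEM3, HEM12 and HEM13 fell by 0.93 to 1.38 on that scale, and the median gene fell by 0.41. Across that step 13.6% (HEM3) to 27.7% (HEM13) of all genes moved further in either direction than these members. HEM4, HEM15 and ROX1 fell by less, and HEM14 and HAP1 rose by 0.21 and 0.03. The values are of single libraries, and these steps have no test.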
